A study of Mus musculus with 23 samples.

Results

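The proteasome genes of hippocampal neuron cultures were followed here after loss of *Nedd8*. They were taken as the protein-coding genes of the GRCm39 annotation whose symbol is Psma to Psmg with a number and an optional letter, with at least 10 raw counts in at least 10 of the 23 count files. Of the 56941 genes in the count tables, 49 had such a symbol and 45 met the count minimum. The other 4, *Psma8*, *Psmb9*, *Psmb11* and *Psme2b*, fell below it, and their counts are given beside their relatives. The choice used symbols and abundance. *Psmb8* met the minimum through the CRE libraries, with 10 of 12 CRE and 3 of 11 RFP libraries at 10 counts or more, so its choice was not independent of the difference described below. The other 44 members reached it in at least 11 of the 12 CRE and in all 11 RFP libraries.

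The proteasome is the protease that degrades proteins carrying ubiquitin chains. Its 20S core is a barrel of alpha rings, which gate the entry, and beta rings, which hold the proteolytic sites. The 19S particle caps the core: its lid removes ubiquitin and its base unfolds the substrate with a ring of ATPases. Interferon-inducible beta subunits can take the place of the constitutive proteolytic ones, and other caps, the activators, open the core without ubiquitin. Nedd8 is a ubiquitin-like protein whose attachment to cullins switches on the cullin-RING ligases, a large family of enzymes that mark proteins for the proteasome.

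Primary hippocampal neurons came from P0 mouse pups homozygous for Nedd8cKO, in which loxP sites flank exons 2 and 3 of *Nedd8*, and all groups carried these alleles. On DIV1 the cultures received a lentivirus that carried either RFP alone (control) or CRE-recombinase with RFP, both under the Synapsin1 promoter, which is active in neurons and not in glia. The libraries are labelled as 12 days in culture. The written methods name a later day. Of 12 CRE and 11 RFP libraries, 10 and 11 were compared, because the methods remove Nedd8Cre1-3 and Nedd8Cre3-3. The number before the hyphen of a library name, 1 to 3, was read as the culture, which neither the labels nor the methods say in words, and the labels do not say that libraries of a culture came from separate animals, so p-values measure the spread between these libraries.

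Total counts ran from 8923280 to 13345552 in the CRE and from 7635735 to 17112815 in the RFP libraries compared. Levels are given as CPM, counts scaled to a common library size with TMM factors. *Nedd8* averaged 11.4 ± 3.69 (SD, n = 10) CPM with CRE and 60.8 ± 10.1 (SD, n = 11) with RFP, and the groups did not overlap. A pair of RFP libraries stood apart and stayed in: RFP 2-4 had 3.44% mitochondrial counts, against 6.997% to 11.1% in the other 20. Over 11510 genes, its log2 levels relative to the median of the other libraries correlated with gene GC content at 0.55 (Spearman). In the other 20 libraries this correlation ran from -0.26 to 0.24. RFP 3-2 had 24.2% of its counts on *Rn18s-rs5*, a ribosomal RNA gene, against 0.856% to 4.06%. The removed CRE libraries had 0.261% and 1.83% mitochondrial counts. The called members were also tested without these libraries and with the removed ones, and each change of a call is given beside the gene.

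All 45 proteasome genes passed the expression filter of edgeR, and 7 of them (15.6%) differed between CRE and RFP libraries at an adjusted p under 0.05 (edgeR's quasi-likelihood test, Benjamini-Hochberg adjustment over all 14482 genes tested, as for every adjusted p here unless another test is named). Of all genes tested, 37.9% did, and among the 12616 genes within the members' range of average expression 39.3% did. *Psmb8*, *Psme4*, *Psme2*, *Psmd10* and *Psmd11* rose (11.1% of members, against 20.2% of all genes higher in CRE), and *Psma3* and *Psmd3* fell (4.44%, against 17.8% lower in CRE). Without *Psmb8*, 6 of 44 were called (13.6%; 4 higher and 2 lower). None of the 45 passed an absolute log2 fold change above 1.3 with a -log10 adjusted p above 6, which 2.09% of all genes did. In no member did the CRE and RFP libraries separate completely, as they did in 5.66% of all genes.

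Most proteasome genes moved little. The median log2 fold change was -0.01 with and without *Psmb8*, beside 0.02 for all genes tested, and 21 of the 45 values were positive. For 32 of the 38 members that were not called, the 95% interval of the log2 fold change lay within -0.5 to 0.5. The interval lay there for 73.3% of the members and for 32.1% of all genes tested. These shares depend on the width of the intervals as well as on the change. The 31 constitutive subunits of core and cap had a median of -0.08, with 1 rising, 2 falling and 28 not called. The half-width of their intervals had a median of 0.20, against 0.32 for all genes tested.

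**Figure D1:**
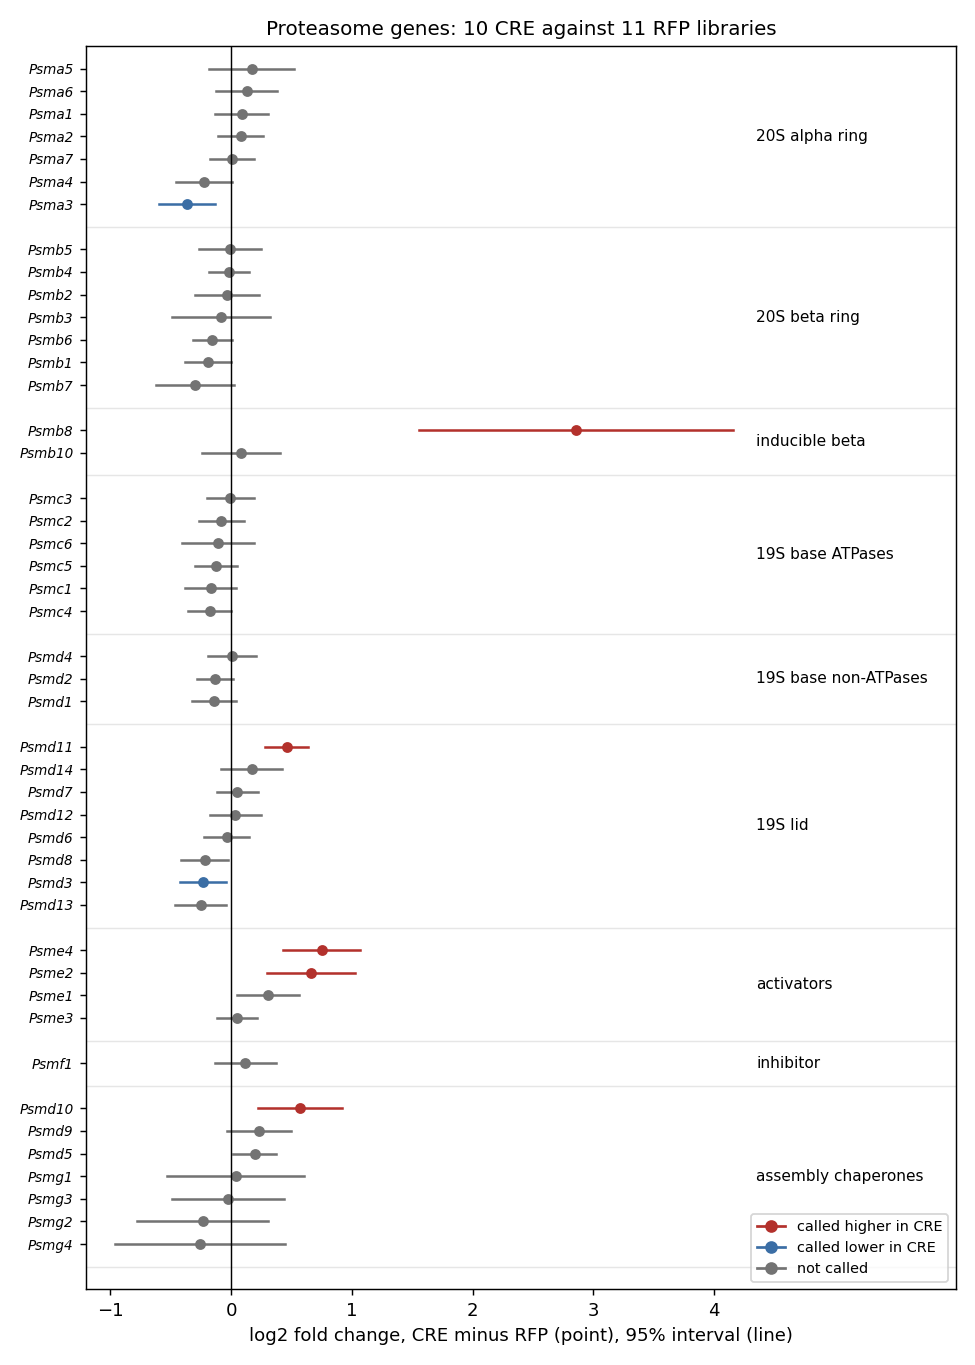
Log2 fold changes (horizontal axis, CRE minus RFP) of the 45 proteasome genes, grouped by role, with points for the estimate and lines for the 95% interval from edgeR, in red for called higher, blue for called lower and grey for not called (10 CRE and 11 RFP libraries). Most points lie between -0.3 and 0.3, while *Psmb8* stands at 2.86 and the other called genes between -0.37 and 0.75.

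In the alpha ring, *Psma3* fell, and the other 6 members measured were not called. *Psma3* (ENSMUSG00000060073, chr12:71021279-71043849, GRCm39, plus strand) stood at 29.5, 37.4 and 52.2 CPM (lowest, median and highest) in the 10 CRE libraries and at 41.3, 48.4 and 72.4 in the 11 RFP libraries. The values of 7 CRE libraries were lower than any RFP value, and the rest overlapped the RFP range. The difference on the log2 scale was -0.37 (standard error 0.11, adjusted p = 0.0115), with -0.47, -0.27 and -0.57 within cultures 1, 2 and 3. The call was lost when counts were summed per culture (adjusted p = 0.0694). Other annotated transcripts, mainly those of *Gm67790*, share 50-base stretches with 22.35% of the canonical *Psma3* transcript. Its exons share 367 bases with *3110056K07Rik* on the opposite strand. The highest value of the ring was that of *Psma5*, 0.17 (95% interval -0.18 to 0.52). *Psma8*, the testis form of an alpha subunit, had 5 counts in 1 CRE library and none in the other libraries compared.

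All 7 constitutive beta ring genes had negative log2 fold changes, from -0.30 to -0.01, and none was called. *Psmb5*, *Psmb6* and *Psmb7* carry the chymotrypsin-like, caspase-like and trypsin-like sites of the core. *Psmb5* stood at 26.7, 40.4 and 53.9 CPM (lowest, median and highest) in CRE and 28.8, 39.6 and 52.5 in RFP libraries, with a log2 fold change of -0.01 (95% interval -0.26 to 0.25). Other annotated transcripts, mainly those of *Ift88*, share 50-base stretches with 48.7% of its canonical transcript. *Psmb6* had 84.6 ± 8.65 (SD, n = 10) CPM with CRE and 94.3 ± 10.6 (SD, n = 11) with RFP, a log2 fold change of -0.16 (95% interval -0.32 to 0.01). *Psmb7* had 14.2 ± 3.03 (SD, n = 10) and 17.5 ± 4.27 (SD, n = 11) CPM, a log2 fold change of -0.30 (95% interval -0.62 to 0.02). Exons of *Psmb7* share 2817 bases with *Nek6* on the opposite strand, and the strand setting of the counting is not given in the sources used here.

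The inducible subunit *Psmb8* was higher in CRE libraries, through which it met the count minimum. *Psmb8* (ENSMUSG00000024338, chr17:34416690-34420428, GRCm39, plus strand), which takes the place of *Psmb5* in the immunoproteasome, had 9 to 91 counts per CRE library and 0 to 27 per RFP library, with 4 of the 11 RFP libraries at 0. On the CPM scale, CRE libraries stood at 0.925, 3.68 and 6.92 (lowest, median and highest) and RFP libraries at 0, 0.303 and 2.49. All 10 CRE libraries lay above the RFP median, and 7 of them above every RFP library. The log2 fold change was 2.86 (95% interval 1.56 to 4.16, adjusted p = 0.000674). It was 2.17, 3.88 and 3.42 within cultures 1, 2 and 3, with adjusted p of 0.0286, 0.0163 and 0.0651. The call held under the 14 alternatives of the closing section and with each of the 21 libraries left out in turn.

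The other inducible subunits did not pass their tests. *Psmb9* (chr17:34400960-34406738, GRCm39, minus strand), which takes the place of *Psmb6* and lies 9.95 kb from *Psmb8*, had 0 to 60 counts in CRE (median 8.5, sum 128) and 0 to 11 in RFP libraries (median 3, sum 38). It did not reach the count minimum or the expression filter. Without the filter its log2 fold change was 1.89 (95% interval 0.32 to 3.46, adjusted p = 0.0692). Its exons share 743 bases with *Tap1* on the opposite strand, a gene that rose, so that its counts are uncertain. *Psmb10*, which takes the place of *Psmb7*, averaged 19.9 ± 3.79 (SD, n = 10) CPM with CRE and 18.8 ± 5.82 (SD, n = 11) with RFP, a log2 fold change of 0.08 (95% interval -0.24 to 0.41). *Psmb11*, the thymus subunit, had 0 to 14 counts in CRE and 0 to 6 in RFP libraries.

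Each inducible subunit was also set against the subunit it replaces within the same library, a measure that uses no library scaling factor. The ratio was taken as log2 of the counts, each with 0.5 added, and compared by a two-sided permutation test of 100000 resamples, adjusted over the 3 pairs. The ratio of *Psmb8* to *Psmb5* averaged -3.63 ± 1.23 (SD, n = 10) with CRE and -7.39 ± 2.15 (SD, n = 11) with RFP. The difference was 3.75 (permutation p = 0.00012, adjusted 0.00036), with 7 of the 10 CRE libraries above every RFP library. It rests on the same *Psmb8* counts and is no separate evidence. Where the *Psmb8* count was 0, as in 4 of the 11 RFP libraries, the added 0.5 made the ratio depend on sequencing depth. With 1 added to each count instead, the difference was 3.32 (adjusted permutation p = 0.00039). At the median ratio of each group, *Psmb8* stood at 9.61% of *Psmb5* with CRE and 1.02% with RFP. The ratio of *Psmb9* to *Psmb6* differed by 1.5 (permutation p = 0.0898, adjusted 0.0898), and passed without culture 2 (2.72, adjusted permutation p = 0.0232). That of *Psmb10* to *Psmb7* differed by 0.40 (permutation p = 0.0420, adjusted 0.0630), and missed the threshold after adjustment. It passed without culture 2 (0.51, adjusted permutation p = 0.0232) and with all 23 libraries (0.96, adjusted permutation p = 0.0241). In that larger set, the removed library CRE 3-3 had 45 *Psmb10* and 0 *Psmb7* counts, so the added 0.5 set its ratio, at 6.51. The difference did not pass without culture 1 (0.25, adjusted permutation p = 0.421) or without culture 3 (0.46, adjusted permutation p = 0.156).

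**Figure D2:**
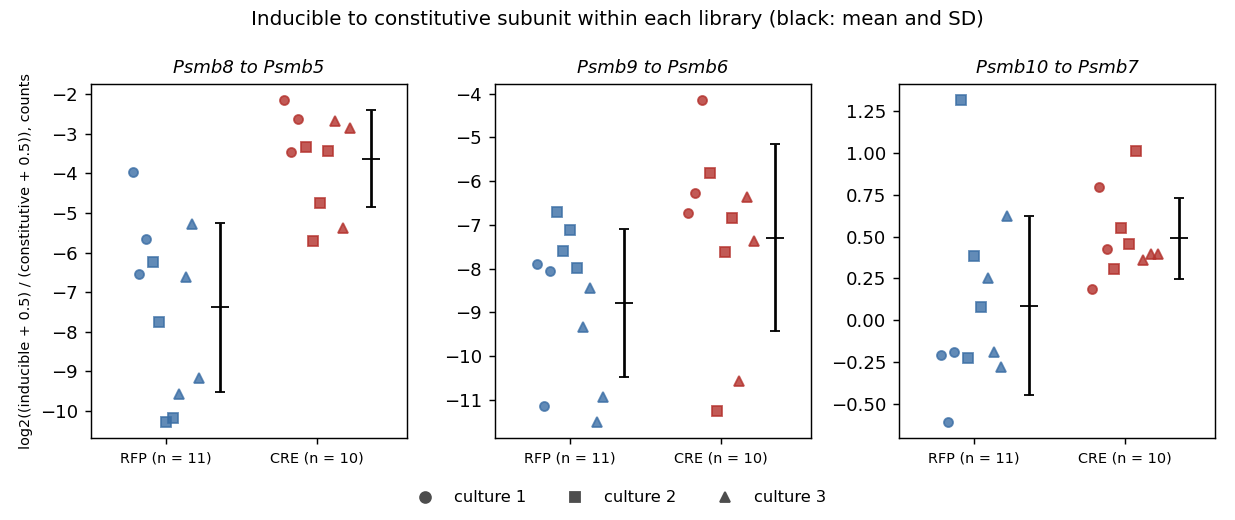
Log2 ratio of inducible to constitutive subunit counts (vertical axis, 0.5 added to each count) in each RFP (blue) and CRE (red) library, with marker shape for the culture and black bars for mean and SD. For *Psmb8* to *Psmb5* the means are -7.39 in RFP and -3.63 in CRE libraries, while the groups overlap widely for the other pairs.

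In the base of the 19S particle, neither the 6 ATPases nor the 3 other subunits passed the test. The ATPases *Psmc1* to *Psmc6*, which unfold the substrate, had log2 fold changes from -0.18 (*Psmc4*) to -0.01 (*Psmc3*), and all 6 intervals lay within -0.5 to 0.5. *Psmc3* stood at 81.1, 109 and 132 CPM (lowest, median and highest) in CRE and 87.0, 104 and 142 in RFP libraries, so the groups overlapped almost fully. *Psmd1* and *Psmd2*, the scaffolds of the base, had -0.14 each, and the ubiquitin receptor *Psmd4* had 0.01 (95% interval -0.19 to 0.20).

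In the lid, *Psmd11* rose and *Psmd3* fell, while 6 members were not called. *Psmd11* (ENSMUSG00000017428, chr11:80319400-80364074, GRCm39, plus strand) is a scaffold of the lid that also touches the core. It stood at 65.7, 86.7 and 101 CPM in CRE and at 50.8, 59.6 and 71.5 in RFP libraries. In 8 CRE libraries the value was higher than in any RFP library. The difference on the log2 scale was 0.46 (standard error 0.09, adjusted p = 8.87e-05), the smallest p of the 45 members, with 0.70, 0.28 and 0.34 within cultures 1, 2 and 3. The call held under all 14 alternatives and with each library left out. Other annotated transcripts, mainly those of *A730017L22Rik*, share 50-base stretches with 18.7% of the canonical *Psmd11* transcript.

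*Psmd3* (ENSMUSG00000017221, chr11:98573362-98586812, GRCm39, plus strand), another lid subunit, stood at 80.4, 99.2 and 129 CPM in CRE and at 97.2, 117 and 149 in RFP libraries. The values of 5 CRE libraries were lower than any RFP value. The difference on the log2 scale was -0.23 (standard error 0.09, adjusted p = 0.0464). The call was lost in 9 of the 14 alternatives, and the value turned to 0.09 (adjusted p = 0.755) with all 23 libraries. It was also lost on leaving out any 1 of 12 libraries (CRE 1-1, 1-2, 1-4, 2-2 and 3-1, and RFP 1-1, 1-2, 1-3, 2-1, 2-3, 2-4 and 3-3), with -0.20 (adjusted p = 0.0940) without CRE 1-1. *Psmd13* lay just outside the threshold, at -0.25 (adjusted p = 0.0502), and *Psmd8* followed at -0.22 (adjusted p = 0.0704), while *Psmd3* at 0.0464 was the called member nearest to it. *Psmd13* was called with DESeq2, with its size factors in edgeR and with culture as replicate block, and that block also called *Psmd8*. Other annotated transcripts, mainly those of *Sirt3*, share 50-base stretches with 44.07% of the canonical *Psmd13* transcript. The exons of *Psmd13* share 458 bases with *Sirt3* and 1231 with *Cox8b* on the opposite strand. The deubiquitinase of the lid, *Psmd14*, had a log2 fold change of 0.17 (95% interval -0.08 to 0.43).

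Of the activators, *Psme4* and *Psme2* rose, and *Psme1* and *Psme3* were not called. *Psme4* (ENSMUSG00000040850, chr11:30721725-30830376, GRCm39, plus strand) encodes a large single-chain activator of the core that is known for degradation of acetylated histones. It stood at 47.4, 60.1 and 83.2 CPM in CRE and at 16.0, 34.2 and 61.2 in RFP libraries. The lowest RFP value was that of RFP 2-4 and the highest that of RFP 3-2. All 10 CRE libraries lay above the RFP median, and 4 above every RFP library. The difference on the log2 scale was 0.75 (standard error 0.16, adjusted p = 0.000335), with 1.02, 1.00 and 0.21 within cultures 1, 2 and 3. The differences between cultures did not pass the interaction test (adjusted p = 0.419). The call was lost with all 23 libraries (0.59, adjusted p = 0.0590).

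*Psme1* and *Psme2* encode the partners of an interferon-inducible ring that opens the core. *Psme2* (ENSMUSG00000079197, chr14:55824895-55829173, GRCm39, minus strand) stood at 12.9, 18.7 and 22.1 CPM in CRE and at 4.55, 11.1 and 18 in RFP libraries. In 5 CRE libraries the value was higher than in any RFP library. The difference on the log2 scale was 0.66 (standard error 0.18, adjusted p = 0.00409). The call was lost with all 23 libraries (adjusted p = 0.148) and without culture 2 (adjusted p = 0.146). Other annotated transcripts, mainly those of *Psme2b*, share 50-base stretches with 65.0% of the canonical *Psme2* transcript. *Psme2b* held 1 to 23 counts per CRE and 2 to 24 per RFP library, so reads of *Psme2* and *Psme2b* may have been split between them. *Rnf31*, which shares 731 exon bases with *Psme2* on the opposite strand, rose by 0.53 on the log2 scale (adjusted p = 0.0215).

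*Psme1* lies 2.86 kb from *Psme2* and averaged 43.5 ± 9.32 (SD, n = 10) CPM with CRE and 35.1 ± 6.99 (SD, n = 11) with RFP. The difference of 0.31 on the log2 scale (95% interval 0.05 to 0.57, adjusted p = 0.0544) missed the threshold. Without RFP 2-4 it passed, with 0.35 (adjusted p = 0.0283), and without culture 3 it was 0.05 (adjusted p = 0.809). Its exons share 2192 bases with *Emc9* on the opposite strand. *Psme3*, whose product forms a nuclear activator, averaged 135 ± 14.3 (SD, n = 10) CPM with CRE and 131 ± 16.4 (SD, n = 11) with RFP, with a log2 fold change of 0.05 (95% interval -0.11 to 0.21). *Psmf1*, which encodes the inhibitor PI31, had 0.12 (95% interval -0.14 to 0.37).

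Of the 7 assembly chaperones, *Psmd10* rose. *Psmd10* (ENSMUSG00000031429, chrX:139847687-139857477, GRCm39, minus strand) encodes gankyrin, which holds an ATPase during assembly of the base. It stood at 9.24, 12.6 and 17.3 CPM in CRE and at 4.92, 8.96 and 11.5 in RFP libraries. In 7 CRE libraries the value was higher than in any RFP library. The difference on the log2 scale was 0.57 (standard error 0.17, adjusted p = 0.00858), with 0.42, 0.77 and 0.31 within cultures 1, 2 and 3. The call was lost with all 23 libraries (adjusted p = 0.267), with the 21 libraries of the study's count table (adjusted p = 0.13), with sums per culture (adjusted p = 0.0662) and without culture 2 (adjusted p = 0.228). The other base chaperones, *Psmd5* and *Psmd9*, had 0.19 (95% interval 0.01 to 0.37) and 0.23 (95% interval -0.03 to 0.50) and did not pass. The chaperones of the alpha ring, *Psmg1* to *Psmg4*, were among the least abundant members, at 3.61 to 8.68 CPM on average in either group, and their intervals were wide, down to -0.96 and up to 0.61.

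**Figure D3:**
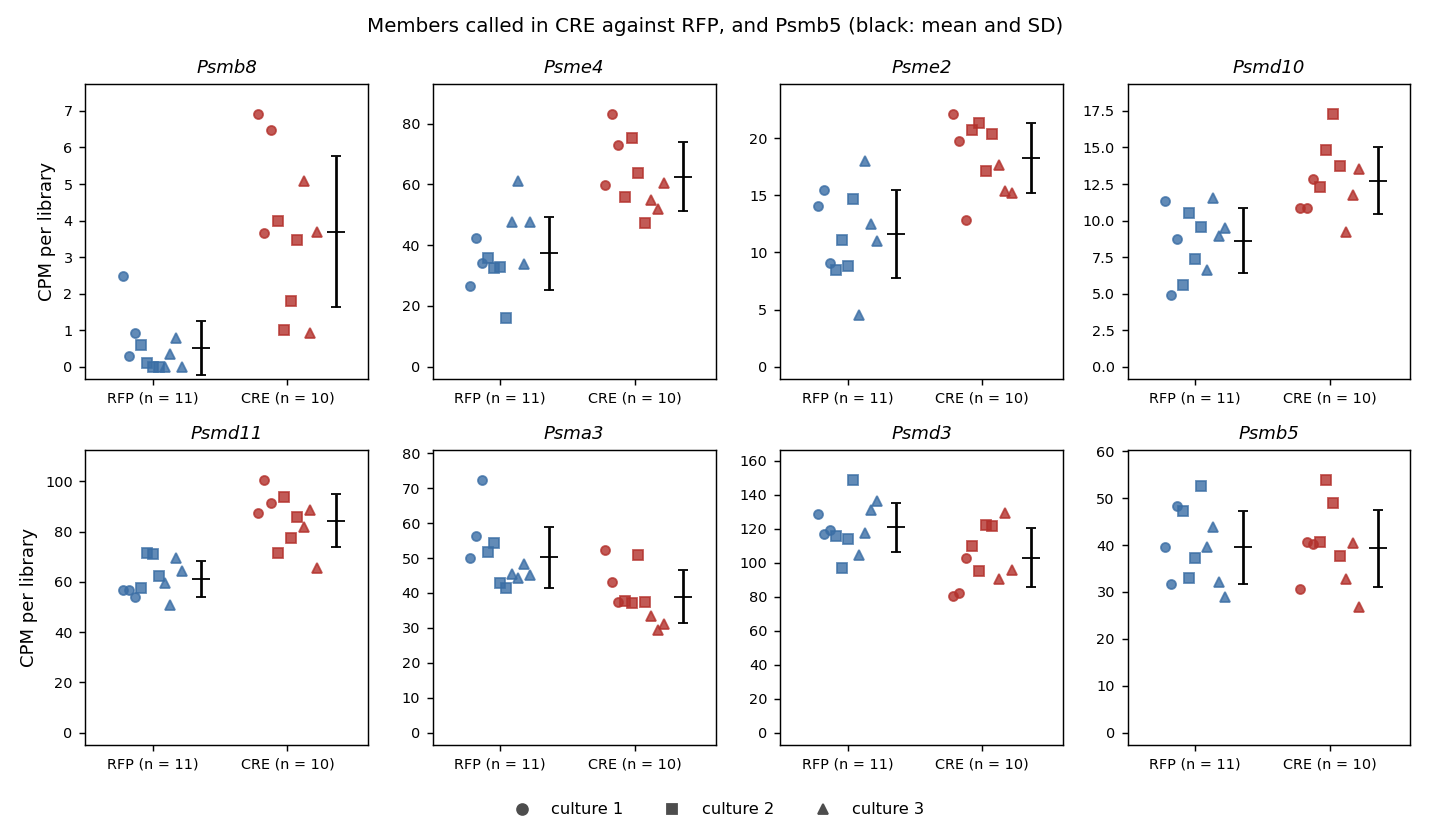
CPM (vertical axis) of the 7 called proteasome genes and of *Psmb5* in each RFP (blue) and CRE (red) library, with marker shape for the culture and black bars for mean and SD. The CRE means are 3.70 against 0.505 CPM for *Psmb8* and 84.4 against 61.3 for *Psmd11*, while *Psmb5* averages 39.3 and 39.5.

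The sequences just before the start of the genes that rose are shown because proteasome genes are known to share promoter elements. They come from RefSeq (GRCm38.p6, an older build than that of the counts), which gave a window of 250 bases before to 50 after the start for 38 of the 45 members. Capitals mark a CCAAT box, and *Psmd10* holds 2 of them on the opposite strand. *Psme2* has a pair of annotated starts. The last 100 bases before each start read:
Psmb8 chr17:34198095-34198194 (plus strand): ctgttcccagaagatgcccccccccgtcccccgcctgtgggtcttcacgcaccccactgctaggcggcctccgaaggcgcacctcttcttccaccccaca
Psme4 chr11:30771675-30771774 (plus strand): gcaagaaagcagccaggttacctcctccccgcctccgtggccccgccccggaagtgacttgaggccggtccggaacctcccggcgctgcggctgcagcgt
Psme2 chr14:55591102-55591201 (minus strand): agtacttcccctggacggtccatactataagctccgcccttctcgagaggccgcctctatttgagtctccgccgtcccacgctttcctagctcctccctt
Psme2 chr14:55591022-55591121 (minus strand): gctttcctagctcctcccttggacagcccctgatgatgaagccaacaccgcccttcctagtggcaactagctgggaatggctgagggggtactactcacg
Psmd11 chr11:80428515-80428614 (plus strand): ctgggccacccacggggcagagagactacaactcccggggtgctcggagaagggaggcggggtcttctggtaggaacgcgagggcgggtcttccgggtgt
Psmd10 chrX:140956712-140956811 (minus strand): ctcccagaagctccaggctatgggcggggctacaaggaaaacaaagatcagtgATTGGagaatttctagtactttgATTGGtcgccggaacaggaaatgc

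In these windows, 3 motifs were searched by their letters on both strands, and no matches of different motifs overlapped in a member. TGACNNNGC, the core of the antioxidant response element bound by NRF1 and NRF2, was found in 6 of 38 members (15.8%) and in 14.0% of 27025 genes. An interferon response element, read as TTTC, any 2 bases and TTTC again, was found in 5 of 38 members (13.2%) and in 3.99% of all genes, and CCAAT in 12 of 38 (31.6%) and 41.1%. Among the genes that rose, only *Psme4* held TGACNNNGC and none held the interferon element in this window. The matches in *Psme4* and in the proteolytic *Psmb5* and *Psmb6*, and that in *Psme1*, stand in capitals within 30 bases of GRCm38.p6 (*Psme4* holds its match on the opposite strand):
Psme4 chr11:30771758-30771787: cgctgcggctGCAGCGTCAccagaagagcc
Psmb5 chr14:54618023-54618052: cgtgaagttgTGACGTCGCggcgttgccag
Psmb6 chr11:70525338-70525367: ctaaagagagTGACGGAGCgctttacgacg
Psme1 chr14:55578493-55578522: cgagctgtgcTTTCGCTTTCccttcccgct
The log2 fold changes of these genes were 0.75, -0.01, -0.16 and 0.31, of which only the first was called.

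Levels were compared between genes per length, as CPM divided by the length of the canonical transcript in kb. In RFP libraries these values ran from 0.297 ± 0.434 (SD, n = 11) for *Psmb8* to 108 ± 11.6 (SD, n = 11) for *Psmb4*, a core subunit. *Psmd2* (98.6 ± 7.65), *Psmc5* (94.6 ± 13.2) and *Psmb6* (91.1 ± 10.3) followed *Psmb4*, each closer to its neighbour in the order than the larger of their SDs. *Psmb1*, whose annotated transcript is 6002 bases long, stood at 11.6 ± 1.26, so that genes whose products are needed in equal number per core differed widely on this scale. *Psmb8* rose to 2.17 CPM per kb on average in CRE libraries, still below the 23.1 of *Psmb5*. The lowest levels after *Psmb8* in RFP libraries were those of *Psmg2* (4.90 ± 1.79), *Psmg1* (4.96 ± 1.36) and *Psme4* (5.75 ± 1.85), which lay within their SDs of each other.

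The members were also read within each culture, where the values are descriptions. The median log2 fold change of the 45 members was 0.02 within culture 1 (3 CRE, 3 RFP), 0.04 within culture 2 (4 and 4) and -0.24 within culture 3 (3 and 4), beside medians of all genes of -0.012, -0.026 and 0.005. In culture 3, 30 of the 31 constitutive subunits had negative values, all but *Psmd11*, against 18 and 17 of 31 in cultures 1 and 2, and 49.6% of all genes were negative there. With each library of culture 3 left out in turn, the median of the members in culture 3 lay between -0.33 and -0.15. *Psmd13* (-0.59) and *Psmc6* (-0.60) fell within culture 3, where 10.6% of all genes were called. In culture 1, where 24.9% were, *Psmd3* fell and *Psma6*, *Psmb8*, *Psmd11* and *Psme4* rose. In culture 2, where 20.2% were, *Psmb8*, *Psme2* and *Psme4* rose. No member passed the interaction of culture and virus in edgeR (lowest adjusted p = 0.343, 3 members with an unadjusted p under 0.05), which 0.311% of all genes passed, so the members were not shown to differ between cultures.

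**Figure D4:**
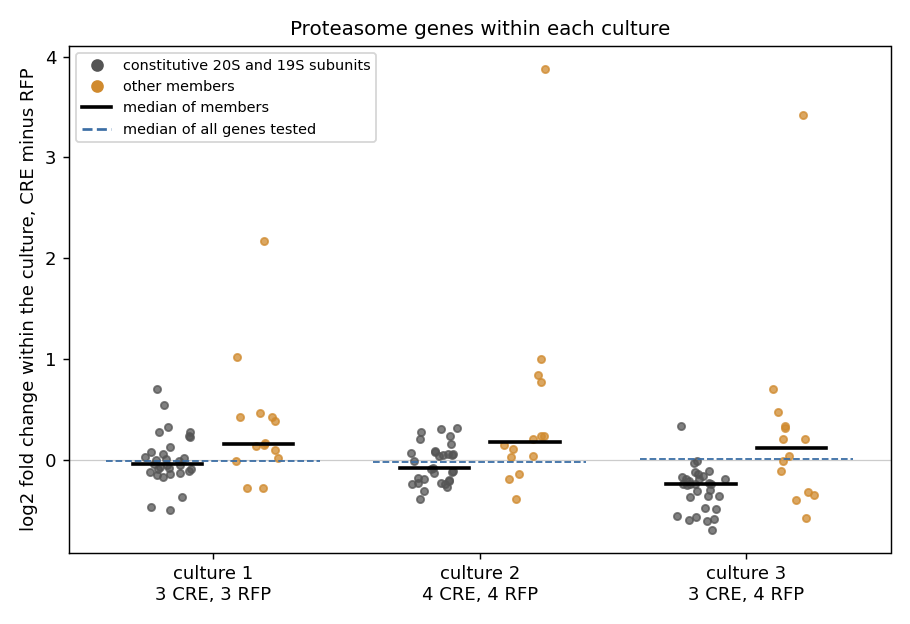
Log2 fold changes (vertical axis, CRE minus RFP) of the proteasome genes within each culture, split into 31 constitutive core and cap subunits (grey) and the other 14 members (orange), with black lines for medians and dashed blue lines for the median of all genes. The grey medians are -0.05, -0.08 and -0.24 in cultures 1, 2 and 3, and those of the other members 0.15, 0.18 and 0.12.

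Genes that work with the proteasome outside the symbol rule were read from lists in the same fit. Of 6 subunits and assembly factors measured, 1 was called: *Fbxo7*, the partner of PI31, fell (log2 fold change -0.62, adjusted p = 0.000163), from 51.6 ± 11.1 (SD, n = 11) CPM with RFP to 33.7 ± 5.24 (SD, n = 10) with CRE. The assembly factor *Pomp* and the ubiquitin receptor *Adrm1* had -0.09 and -0.21 and were not called. Of 15 shuttles, deubiquitinases and other partners, 3 rose and 3 fell, a share near the 37.9% of all genes. The shuttle *Ubqln4* rose by 0.40 and *Ubqln2* fell by 0.33 on the log2 scale (adjusted p = 0.000131 and 0.000411), and the proteasomal ligase *Ube3c* fell by 0.25 (adjusted p = 0.00478). None of the 4 ubiquitin genes was called with edgeR, at log2 fold changes from -0.17 to 0.25, and 2 of them, *Ubb* and *Rps27a*, had an unadjusted p under 0.05 (0.0393 and 0.0190).

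Regulators of proteasome gene transcription and antigen presentation genes were read in the same way. Of 6 regulators, 3 rose and 1 fell, against 20.2% and 17.8% of all genes, with a median log2 fold change of 0.52. *Nfe2l2* (NRF2) stood at 60.3 ± 14.2 (SD, n = 10) CPM with CRE and 28.9 ± 10.1 (SD, n = 11) with RFP, a log2 fold change of 1.06 (adjusted p = 1.58e-05). Its small MAF partners *Mafg* and *Mafk* rose by 0.73 and 1.00 on the log2 scale (adjusted p = 1.74e-08 and 6.14e-05). *Ngly1*, which encodes a deglycosylase that processes NRF1, fell by 0.45 (adjusted p = 0.0310). *Nfe2l1* (NRF1), known for the recovery of proteasome genes when the protease is inhibited, had 0.18 (adjusted p = 0.0545). Of 10 antigen presentation genes that act beside the inducible subunits, 7 rose and none fell, with a median of 0.87, against 20.2% of all genes higher in CRE. *Tapbp*, *B2m* and *Tap1*, the peptide loading chaperone, the light chain of class I and the peptide transporter, rose by 0.95, 1.4 and 1.42 (adjusted p = 4.94e-07, 8.58e-06 and 3.48e-05).

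Markers of other cells in the dish also moved between the groups, and their part in these results was not tested. In whole cultures, fewer cells of a type and less RNA per cell cannot be told apart. The counts below stand beside 20.2% of all genes tested higher and 17.8% lower in CRE. Of 14 microglia markers, 4 were abundant enough to test and 2 rose, *Tmem119* and *Cd68* (log2 fold changes 3.49 and 1.39), while *Csf1r* (-0.98) was not called. The summed level of the list ran from 10.9 to 35.5 CPM in CRE and from 4.92 to 14.8 in RFP libraries, with *Cx3cr1* at 0 in every CRE library compared and *Aif1*, *C1qa*, *C1qb*, *C1qc* and *Trem2* at no more than 11 counts in any library, and *P2ry12*, *Tyrobp*, *Ptprc* and *Itgam* at up to 62, 20, 17 and 11 counts. Of 6 mesenchymal markers 2 rose, *Rgs5* by 2.71 and *Pdgfrb* by 0.77, and 4 were not called, of which *Dcn* (-0.82) alone was negative. Their sums ran from 119 to 349 CPM in CRE and 21.3 to 144 in RFP libraries, and *Rgs5* alone averaged 162 and 24.6 CPM. Of 8 neuron markers, 5 fell and 1 rose, with sums from 2918 to 5069 and from 4772 to 6167 CPM. Of 8 astrocyte markers, 2 rose and 3 fell (sums 1635 to 5252 and 3073 to 7908 CPM), 5 of 8 oligodendrocyte lineage markers fell (425 to 1009 and 584 to 1867 CPM), and of 6 endothelial markers the 1 tested, *Kdr*, fell (1.26 to 10.1 and 2.17 to 9.57 CPM), with *Cldn5* at no more than 3 counts in any library.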

How the data were processed

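RNA of 23 libraries was prepared with Illumina Stranded mRNA Prep and sequenced on a NovaSeq6000. Per the labels, the authors used bcl2fastq 2.20.0.422, STAR 2.7.8a on GRCm39 and featureCounts 1.5.0-p1, and deposited raw counts per gene for each library, without normalization. Strand and multi-mapping settings are not given in the sources used here. The GENCODE annotation of GRCm39 named 56323 of 56941 genes, with 99.95% of the counts.

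The 21 libraries left by the study's methods were compared (10 CRE, 11 RFP) in R 4.3.3 with edgeR 4.0.16 (filterByExpr, TMM, estimateDisp, robust glmQLFit, glmQLFTest, Benjamini-Hochberg adjustment), tested on simulated data first. DESeq2 1.42.0 was an alternative. CPM used TMM factors, and sums over marker lists those of all 23 libraries. Python 3.11.15 with numpy 2.4.6 and pandas 2.3.3 served for the permutation tests.

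The members, gene lists, motifs and 14 alternatives were chosen with earlier results of these data known. Leaving out each library in turn was added after seeing the data. Genes named are all members called, the highest and lowest of each role class, *Psmb5* to *Psmb10*, *Psme1* to *Psme4*, and up to 3 called genes per list with the smallest p. Others (values near the threshold, single markers, neighbours and overlapping genes) were chosen after their values were seen.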

Additional observations from a re-analysis of the deposited data

Results flagged for a closer look

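Among the 24 sets of CRE values examined for a lone sample, 1 stood out, and chance flags about 1 in 20 such sets. *Psma5*, an alpha ring subunit, stood at 34.4 CPM in CRE 2-2, while the other CRE libraries lay between 9.61 and 20.1. The gap to the nearest library was 0.576 of the whole range, above Dixon's critical value for 10 samples. Other annotated transcripts, mainly those of the pseudogene *Psma5-ps*, share 50-base stretches with 55.1% of the canonical *Psma5* transcript. Their part in this value was not tested. RFP groups of 11 were not examined.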

How the results depend on the processing

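Of 45 members, 7 were called (5 higher, 2 lower). *Psmb8*, which met the count minimum through the CRE libraries, and *Psmd11* were called under each of 14 alternatives and with each library left out. These fits reuse the same counts and are no separate evidence. The losses of the other called members stand beside them above. All 23 libraries gave 3 called (2 higher, 1 lower) and sums per culture 4 (0 lower). The count lower was 1 with the 21 libraries of the count table, without RFP 2-4 (20 libraries), with no filter and with the GC trend removed. With 1 library or culture left out, 5 to 13 were called, 3 to 7 higher (3 without culture 2) and 1 to 8 lower. Without CRE 2-4, CRE 2-1, CRE 2-3 or RFP 3-4, the members lower were 8, 6, 4 and 7.

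Replicate numbers were not taken as pairing the samples: CRE and RFP deviations of cultures 1 to 3 correlated at 0.12, 0.18 and 0.08 across genes, not all above 0.1. Each of the 3 CRE cultures correlated best with the RFP culture of its own number (-0.14 to 0.02 for the other 6 pairs), a hint from the data, while 2 of 9 libraries matched their own number best. The replicate block by culture gave 9 called members (4 lower, with *Psmd13* and *Psmd8* added), and that by culture and library number 6 (1 lower).

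The values of 21 of the 45 members spanned 0 over the alternatives, with *Psmd3* the 1 called among them. Of the members named by rule, those that changed sign follow, and no value of the opposite sign was called. *Psmb5* was 0.245 with all 23 libraries, 0.196 with the count table's 21, 0.0404 with 20, 0.0448 with 19 (without RFP 3-2 too) and 0.0284 with the GC trend removed, and -0.0995 to 0.0312 with a culture left out. *Psmc3* was 0.0983, 0.0750, 0.0439, 0.0002424 and 0.0339 in that order, and -0.101 to 0.0265. *Psmb6* was 0.0654 and 0.0170 with all 23 and the count table's libraries, and *Psmd3* 0.0912 with all 23. *Psmd4* was -0.00598 with DESeq2, -0.00569 with its size factors in edgeR and -0.0547 with sums, and -0.0592 to 0.0564 with a culture left out. *Psme3* was -0.0128 with the count table's libraries and -0.0001514 with sums, and -1.253e-05 to 0.0647. *Psmb10* was -0.0458 to 0.174 with a culture left out. The ratio of *Psmb10* to *Psmb7* was 0.96 with all 23 libraries and 0.25 to 0.51 with a culture left out, and that of *Psmb9* to *Psmb6* 0.73 to 2.72. Genes called for the interaction numbered 0 with all 23 and 71 with 20 libraries. The causes were not tested. With no filter the median of all genes moved to 0.11. Low counts limit *Psmb8*, *Psmb9* and the chaperones of the alpha ring.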

Other observations

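*Psme2* and *Psme1* lie 70.5 and 77.7 kb from *Nedd8*, the targeted gene, on chromosome 14, and *Psmb5* lies 1044.2 kb away. Of the 16 other genes tested within 100 kb of *Nedd8*, 3 rose and 1 fell (25%, beside 37.9% of all genes). *Irf9*, a subunit of an interferon-activated transcription factor, rose by 0.72 on the log2 scale (adjusted p = 0.000152 from edgeR), *Rnf31* and *Psme2* rose as given above, and *Dcaf11*, a substrate receptor of cullin-RING ligases, fell by 0.24 (adjusted p = 0.0455). Between *Psme2* and *Nedd8*, the other genes tested, *Rec8*, *Ipo4*, *Tm9sf1*, *Gm49747* and *Mdp1*, were not called, with log2 fold changes from -0.22 to 1.70.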
